A study of Mus musculus with 4 samples.

Results

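In PN5 mouse zygotes, 56 of 2413 autosomal windows of 1 Mb (2.32%) were the densest in H3K27me2 peaks of the paternal genome. Dense refers here to the number of peaks, not to signal or covered sequence. The windows were selected on measured values: chromosomes 1 to 19 were divided into windows of 1 Mb, and a window was kept when at least 50 peaks started in it in the paternal list of the Ezh2m+/p+ zygotes and also in that of the Ezh2m-/p+ zygotes. Their members are 10197 of the 56036 peaks of the 4 deposited lists, with 5116 paternal and 29 maternal peaks in Ezh2m+/p+ zygotes and 5009 paternal and 43 maternal peaks in Ezh2m-/p+ zygotes. The number, length, fold and spacing of the paternal peaks are therefore a description of the windows. The maternal peaks, the genes, the sequence and the position of a peak within its window were not used to choose them, but the maternal and the paternal peaks come from the same libraries.

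H3K27me2 was profiled by ULI-NChIP-seq, a native ChIP-seq for very small samples in which MNase cuts the chromatin and an antibody recovers the marked nucleosomes. Eggs of C57BL/6J females were fertilized in vitro by PWK/PhJ sperm, and the zygotes were pooled without their polar bodies. The mothers of the Ezh2m+/p+ zygotes were Ezh2 fl/fl (control zygotes), and those of the Ezh2m-/p+ zygotes were Ezh2 fl/fl; Gdf9-Cre, in which Cre under the Gdf9 promoter deletes the floxed exon in oocytes, while all zygotes received an intact Ezh2 allele from the PWK/PhJ father. Each genotype had 1 H3K27me2 library and 1 input library, so no value could be checked in a replicate and none has a p-value. Intervals are 95% Wilson intervals for shares and Poisson intervals for counts. They cover counting error only, and neighbouring peaks are not independent. The peak lists were tied to the genotypes by their names, and their peak totals equal those that the study's record of methods gives under each genotype. The annotation shares that the study displays match these lists with the genotypes exchanged, which would turn every direction between control and Ezh2m-/p+, and nothing in the lists settles the difference. The same record gives the Ezh2m-/p+ H3K27me2 library fewer reads than the control library, whereas the lists and the read coverage under the Ezh2m-/p+ name are the larger.

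H3K27me2 is deposited by PRC2, in which EZH1 or EZH2 is the catalytic subunit and EED and SUZ12 are core partners. It is the state between the mono- and the tri-methylated lysine and usually lies in broad domains of chromatin that is not actively transcribed. After fertilization the paternal genome exchanges protamines for histones of the egg, so its histone marks are largely set anew in the zygote, whereas the maternal genome carries marks over from the oocyte.

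Short stretches of the peaks on which the description turns are shown first. The initial sequence is the centre of the paternal peak of largest fold in the densest window that overlaps a peak of the other genotype, in an intron of Rabgap1l. The next come from Pgm5, in a window where no maternal peak was listed, and from Atrn, whose Ezh2m-/p+ peak had the largest fold of its list in the windows. The last comes from the maternal peak in Dip2b that was listed at the same position in both genotypes. Each run has 300 bases of the plus strand of GRCm38, which is the C57BL/6J sequence also for the paternal PWK/PhJ peaks, and CG dinucleotides are in capitals.
Rabgap1l, chr1:160524551-160524850: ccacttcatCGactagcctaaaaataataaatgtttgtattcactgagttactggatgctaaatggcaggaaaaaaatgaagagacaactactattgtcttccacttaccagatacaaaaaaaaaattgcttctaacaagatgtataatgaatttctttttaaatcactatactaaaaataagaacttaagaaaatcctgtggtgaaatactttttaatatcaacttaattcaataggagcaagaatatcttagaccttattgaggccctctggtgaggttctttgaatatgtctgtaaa
Pgm5, chr19:24843651-24843950: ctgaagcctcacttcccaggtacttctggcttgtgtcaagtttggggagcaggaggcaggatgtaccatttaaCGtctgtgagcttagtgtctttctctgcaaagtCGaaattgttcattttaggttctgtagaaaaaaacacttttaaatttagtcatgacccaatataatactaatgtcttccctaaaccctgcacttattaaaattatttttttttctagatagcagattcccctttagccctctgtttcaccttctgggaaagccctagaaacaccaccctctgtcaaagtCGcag
Atrn, chr2:130938951-130939250: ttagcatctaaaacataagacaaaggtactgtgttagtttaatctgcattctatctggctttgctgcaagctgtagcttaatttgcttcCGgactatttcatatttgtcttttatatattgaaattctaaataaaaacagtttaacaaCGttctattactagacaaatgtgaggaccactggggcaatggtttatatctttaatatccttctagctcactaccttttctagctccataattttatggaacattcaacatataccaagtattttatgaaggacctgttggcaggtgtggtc
Dip2b, chr15:100145251-100145550: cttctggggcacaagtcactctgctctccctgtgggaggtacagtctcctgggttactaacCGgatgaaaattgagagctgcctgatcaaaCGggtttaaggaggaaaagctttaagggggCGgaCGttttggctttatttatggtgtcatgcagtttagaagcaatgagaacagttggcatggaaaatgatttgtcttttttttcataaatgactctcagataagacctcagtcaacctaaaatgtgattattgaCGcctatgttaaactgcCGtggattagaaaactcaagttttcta
The 3 paternal centres had 1, 3 and 2 CG dinucleotides with GC contents of 30.3%, 40.7% and 34.0%. The maternal centre in Dip2b had 6, with a GC content of 42.0%. These centres do not stand for their lists. The paternal peaks of the windows had a GC content of 45.8% in control and 44.9% in Ezh2m-/p+ zygotes, with 11.4 and 10.9 CpG per kb. The Rabgap1l peak had a fold over input of 481 in Ezh2m-/p+ zygotes and overlapped a control peak with a fold of 21.8, and the Pgm5 peak had folds of 323 and 25.6. The Atrn peak had folds of 725 and 301. All 3 paternal peaks were taken from the Ezh2m-/p+ list, those of Rabgap1l and Atrn for their large fold. Their lower control folds are therefore no comparison of the genotypes. Over all paternal peaks of the windows, the median fold was 36.1 in control and 14.8 in Ezh2m-/p+ zygotes. The maternal Dip2b peak had a fold of 5.53 in control and of 29.8 in Ezh2m-/p+ zygotes.

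The dense windows lay on 16 of the 19 autosomes. Chromosome 1 had 12 of them among its 193 windows, chromosome 14 had 9 of 122, chromosome 4 had 8 of 154 and chromosome 3 had 6 of 157. Chromosomes 5, 7 and 16 had none among 149, 143 and 96 windows. With 2.32% of all windows dense, only a few would fall on such chromosomes. They held 29.6% (28.9 to 30.3) of the 17287 autosomal paternal peaks of control zygotes and 22.9% (22.4 to 23.5) of the 21838 of Ezh2m-/p+ zygotes. The median window held 92 control and 89 Ezh2m-/p+ paternal peaks, against 2 and 4 over all windows. Counts ran from 51 to 147 in control and from 53 to 129 in Ezh2m-/p+ zygotes.

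**Figure D1:**
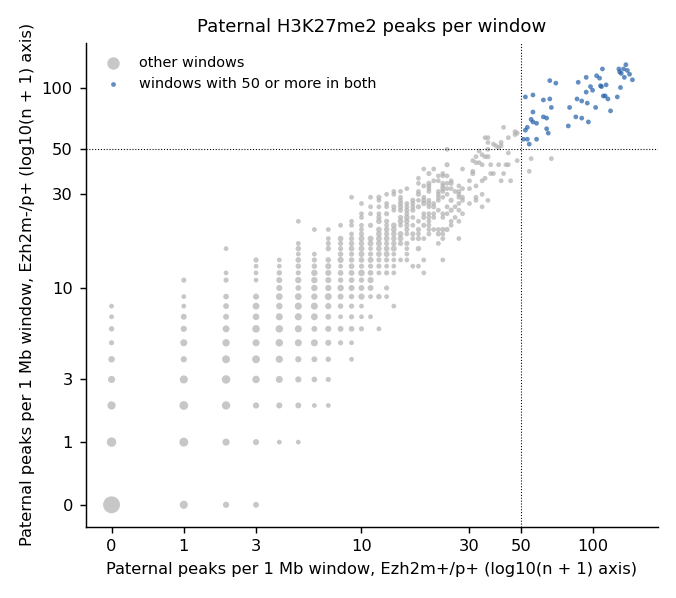
Paternal peaks in each 1 Mb window of chromosomes 1 to 19, Ezh2m+/p+ zygotes on the horizontal axis and Ezh2m-/p+ zygotes on the vertical axis (log10(n + 1) axes, labelled in peaks). A point is a combination of counts, larger where more windows share it. The 56 blue windows, above both dotted lines at 50, are the members, and the windows close to the lines form a continuum with them.

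The threshold did not fall in a gap. Just inside it were chromosome 2 from 71 to 72 Mb with 51 control and 56 Ezh2m-/p+ paternal peaks, chromosome 10 from 104 to 105 Mb with 52 and 90, and chromosome 15 from 100 to 101 Mb with 52 and 62. Just outside it were chromosome 11 from 5 to 6 Mb with 48 and 60, chromosome 6 from 131 to 132 Mb with 47 and 59, and chromosome 11 from 6 to 7 Mb with 47 and 61. A further 3 windows reached 50 in control zygotes only, and 15 in Ezh2m-/p+ zygotes only.

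Dense windows were often neighbours. They formed 29 runs, of which 18 were single windows and 5 were runs of 5 or more that together held 26 windows. The longest run, on chromosome 1 from 156 to 162 Mb, had 6 windows with 136, 143, 130, 131, 138 and 132 paternal peaks in control and 112, 116, 119, 100, 129 and 117 in Ezh2m-/p+ zygotes. The counts of the 6 windows thus differed little from each other, and the control count was the higher in each. The other long runs were chromosome 1 from 171 to 176 Mb, chromosome 3 from 123 to 128 Mb, chromosome 4 from 136 to 141 Mb and chromosome 14 from 48 to 53 Mb.

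The density changed abruptly at the upstream end of the longest run. In the 100 kb bins before it, the control paternal counts went from 0 to 12 between the bins centred 0.35 and 0.25 Mb upstream, and the Ezh2m-/p+ counts from 1 to 8. On the other side the counts fell unevenly. They were 11 and 15 in the last bin of the run, between 1 and 9 in each list over most of the next 1 Mb, and 0 in both lists in the bin centred at 7.15 Mb, and beyond that the lists held almost none up to 4 Mb past the run. Maternal peaks had the opposite arrangement. The 6 windows held no control and 2 Ezh2m-/p+ maternal peaks, while the maternal lists had peaks on both sides of the run.

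**Figure D2:**
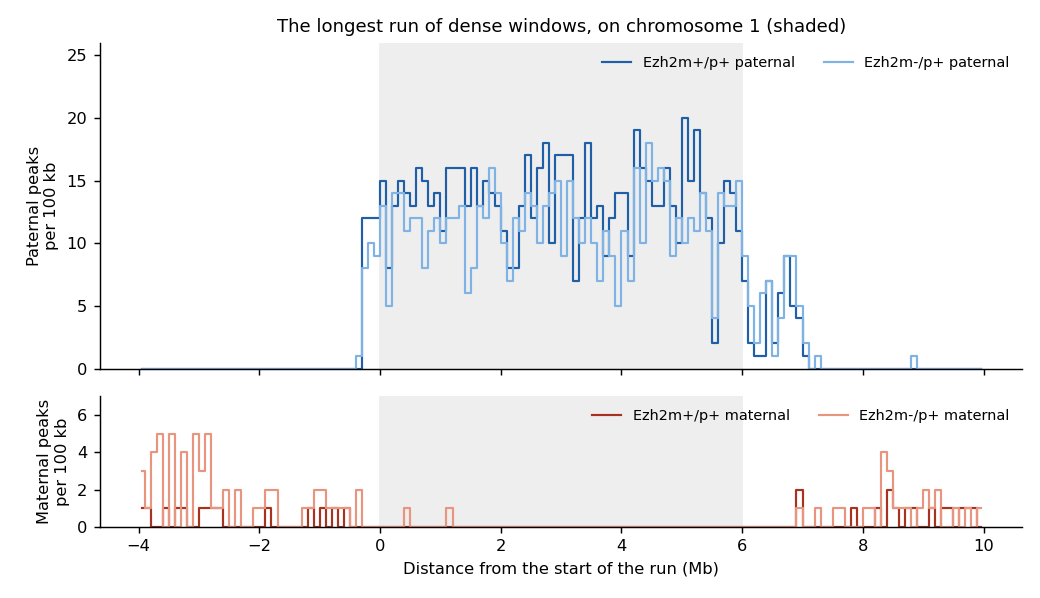
Peaks per 100 kb along the longest run of dense windows on chromosome 1 (shaded, 6 Mb) and 4 Mb on either side, paternal lists above and maternal lists below, against the distance from the start of the run in Mb. Paternal peaks rise abruptly on the upstream side and decline unevenly over about 1 Mb on the downstream side in both genotypes, and the maternal lists hold 0 and 2 peaks in the shaded windows but more outside.

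This arrangement was then measured around every dense window. The definition was chosen after the profile of chromosome 1 had been seen: from each dense window, 100 kb bins with at least 4 paternal peaks of both genotypes together were joined across up to 3 bins below that number. This gave 29 stretches of 0.8 to 7.6 Mb (median 2.00 Mb, 80.7 Mb in all), which held 5112 of the 5116 control and 4994 of the 5009 Ezh2m-/p+ paternal peaks of the dense windows. With the parts that reached into other windows, they held 36.8% and 29.4% of the autosomal paternal lists. The paternal density was 78.8 peaks per Mb in control and 79.6 in Ezh2m-/p+ zygotes, against 3.42 and 5.02 within 1 Mb on either side, a contrast that the definition itself favours. The outermost paternal peaks of the genotypes lay within 10 kb of each other at 38 of the 58 ends (median difference 2.00 kb). The common definition of the ends from both lists limits how far they could differ.

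Maternal peaks, which did not enter the definition, were sparser inside these stretches than beside them. control zygotes had 40 maternal peaks inside, or 0.496 per Mb (0.354 to 0.675), and 139 in the flanks, or 2.41 per Mb (2.03 to 2.85). Ezh2m-/p+ zygotes had 63 inside, or 0.781 per Mb (0.60 to 0.999), and 285 in the flanks, or 4.95 per Mb (4.39 to 5.56). The intervals did not overlap in either genotype. Of the 29 stretches, 12 held no maternal peak in either list, whereas 25 had a maternal peak in their flanks. The maternal density was lower inside than in the flanks in 20 (control) and 23 (Ezh2m-/p+) stretches, equal in 8 and 4, and higher in 1 and 2. The exceptions were chromosome 9 from 46.4 to 48.4 Mb in control zygotes, and chromosome 1 from 193.2 to 194.6 Mb and chromosome 12 from 16.3 to 17.9 Mb in Ezh2m-/p+ zygotes. The stretch on chromosome 2 from 127.0 to 131.2 Mb held the most maternal peaks, 15 and 20, beside 23 and 24 in its flanks.

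The 10 densest windows, ranked by the lower of the genotypes' counts, were 5 windows of the longest run and 5 others. Chromosome 1 from 160 to 161 Mb came top with 138 control and 129 Ezh2m-/p+ paternal peaks and no maternal peak. In this window 184 paternal peaks of the lists together were assigned to Rabgap1l, which encodes a protein related to GTPase-activating proteins of Rab proteins. Chromosome 19 from 24 to 25 Mb followed with 129 and 123 peaks (Pip5k1b, a phosphatidylinositol phosphate kinase, and Pgm5), and chromosome 2 from 130 to 131 Mb with 135 and 123. Chromosome 3 from 127 to 128 Mb had 140 and 121, led by Ank2 with 114 assigned peaks of both lists, and from 126 to 127 Mb it had 110 and 123, led by Camk2d. Chromosome 14 from 48 to 49 Mb had 147 and 109, with Tmem260 and the homeobox gene Otx2 in front. Maternal peaks were listed in 4 of these 10 windows, with at most 1 per list, beside 20 of all 56 dense windows.

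**Figure D3:**
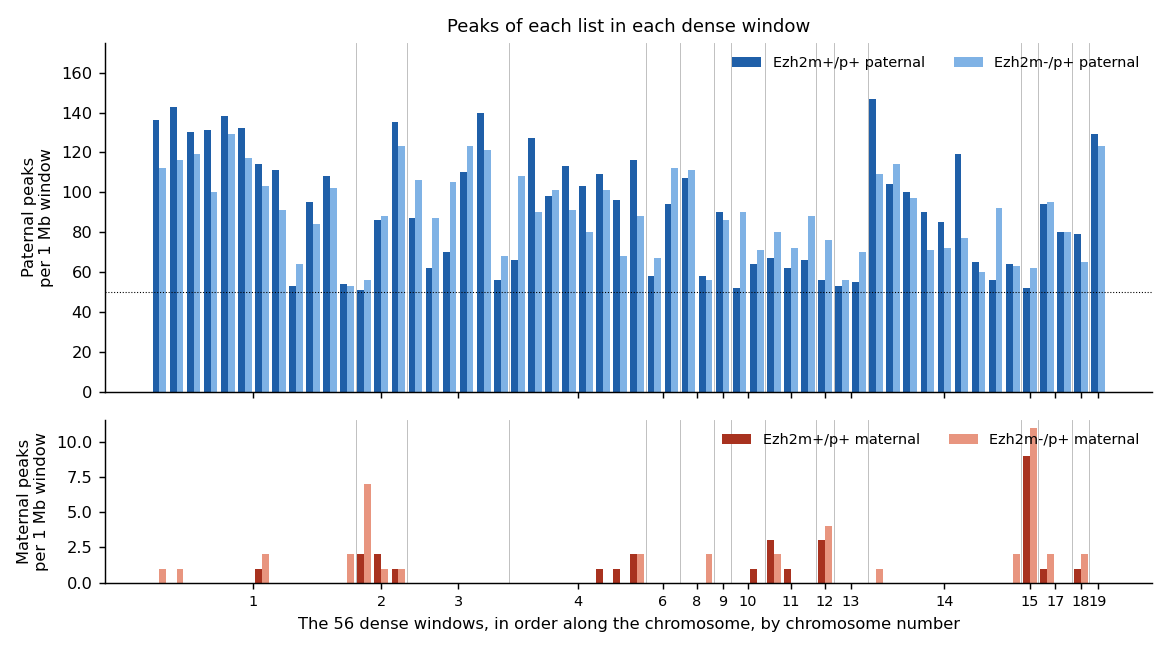
Peaks of each list in each of the 56 dense windows, ordered along chromosomes 1 to 19, paternal above (dotted line, the minimum of 50) and maternal below. Bars are counts from 1 library per genotype. Paternal counts of the genotypes follow each other, and most windows hold no maternal bar, with the highest maternal bars of 9 and 11 on chromosome 15.

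The paternal counts of the windows are values that chose them, and asking for 50 peaks in both lists favours a higher count of the shorter control list. The ratio of Ezh2m-/p+ to control paternal peaks is therefore given as a description only. It was 0.979 inside, 1.38 outside and 1.26 over the autosomes, and 1.19 in windows with 20 to 49 peaks in both lists. With a minimum of 40 or 60 it was 0.994 or 0.941, and with peaks over 2000 bp 1.06. More Ezh2m-/p+ peaks were listed in 25 windows, more control peaks in 30, and 1 window was equal. The covered sequence was larger in Ezh2m-/p+ zygotes in 56 of 56 windows, with 24.1 Mb (43.1% of the known sequence) against 17.1 Mb (30.6%), and 14.1 Mb was covered in both. This was not particular to these windows, since in the others the covered sequence went from 24.6 Mb (1.05%) in control to 40.3 Mb (1.72%) in Ezh2m-/p+ zygotes, a ratio of 1.64 against 1.41 inside. Per window, coverage ran from 10.0 to 70.4% (median 26%) in control and from 16.0 to 81.8% (median 37.4%) in Ezh2m-/p+ zygotes. Thus similar numbers of peaks spanned more sequence in Ezh2m-/p+ zygotes.

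Peaks were longer and closer together in the dense windows. The median length was 2199 bp in control and 2999 bp in Ezh2m-/p+ zygotes, against 1599 and 1799 bp in other windows. Peaks over 5 kb made up 16.2% and 28.3%, against 3.50% and 5.91% elsewhere. The longest member was an Ezh2m-/p+ peak of 101999 bp on chromosome 4 (138688201 to 138790199), which spans the start of Pla2g2c, a gene of secreted phospholipase A2. In control zygotes the longest was 52399 bp, also on chromosome 4, at the promoter of Gm13032.

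The median gap from the end of a paternal peak to the next in the same window was 2801 bp in control and 2201 bp in Ezh2m-/p+ zygotes, against 17201 and 14001 bp elsewhere. Gaps of up to 2 kb were 38.9% and 46.2% inside and 14.0% and 15.6% outside. No gap was shorter than 801 bp, since the peak caller joined enriched stretches separated by up to 600 bp. The window median was the smaller in Ezh2m-/p+ zygotes in 42 of 56 windows. In 100 kb bins, the median was 10 paternal peaks in both genotypes, and only 46 (control) and 37 (Ezh2m-/p+) of the 560 bins held none. The peaks did not form a single block in every window: the longest stretch without one reached 586 kb (control) and 585 kb (Ezh2m-/p+) on chromosome 2 from 71 to 72 Mb, and 14.0 and 10.0 kb on chromosome 14 from 54 to 55 Mb.

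**Figure D4:**
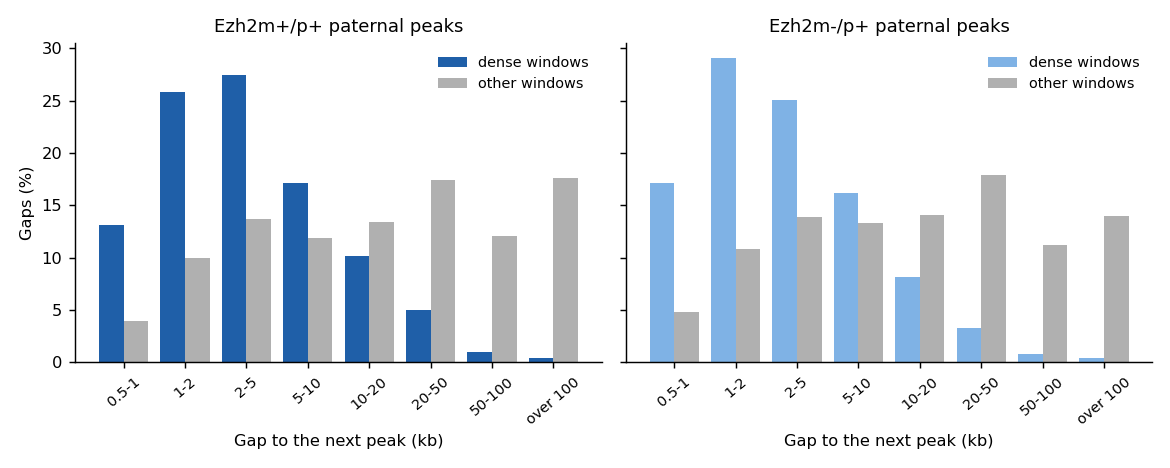
Share of the gaps between neighbouring paternal peaks of a window by length in kb, Ezh2m+/p+ zygotes on the left and Ezh2m-/p+ on the right, dense windows in blue and other windows in grey. Gaps of 1 to 5 kb are the commonest in the dense windows, whereas gaps over 20 kb are 6.38% and 4.42% of them and 47.1% and 43.1% of those elsewhere.

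The folds over input in the lists were stepped. In the dense windows the median fold of control paternal peaks was 36.1 (quartiles 12.0 and 72.2), as elsewhere (36.1), and that of Ezh2m-/p+ peaks was 14.8 (quartiles 9.60 and 49.3), against 15.8 elsewhere. The value 48.1 alone was listed for 490 and 36.1 for 484 of the 5116 control peaks. Because of these steps, and because each genotype has its own input, folds of the genotypes set side by side are listed values and not a comparison. The control members of largest fold were at Fam163a (457), Htr1d, a serotonin receptor gene (427), and Tnr (409). Those of Ezh2m-/p+ zygotes were at Atrn (725), Suco (599) and Ptpra, a receptor tyrosine phosphatase gene (504).

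Overlap of at least 1 bp between the genotypes was more frequent in the windows than elsewhere, but identical peaks were less frequent, and under a stricter overlap the control share was close to that elsewhere. Of the control paternal peaks, 4431 of 5116 (86.6%, 85.6 to 87.5) overlapped an Ezh2m-/p+ paternal peak by at least 1 bp, against 58.0% in other windows and 66.5% over all autosomes. Of the Ezh2m-/p+ peaks, 70.2% (68.9 to 71.4) overlapped a control peak, against 39.3% elsewhere and 46.4% over all. The Ezh2m-/p+ peaks cover 43.1% of the dense windows and 1.72% of the other windows. How much overlap this difference in density would bring by itself was not tested. At a reciprocal overlap of 50% the share of control peaks was 31.3% (30 to 32.5), against 31.8% (31.0 to 32.7) in other windows and 31.7% over all autosomes. That of Ezh2m-/p+ peaks was 31.9% (30.6 to 33.2), against 23.0% (22.4 to 23.7) and 25.1%. By sequence, 82.3% of what control peaks covered in the windows was also covered in Ezh2m-/p+ zygotes, and 58.5% the other way. At the same start and end were 63 peaks, or 1.23% of the control and 1.26% of the Ezh2m-/p+ peaks of the windows, against 316 in other windows (2.60% and 1.88%). The share of overlapping control peaks ran from 58.5% on chromosome 14 from 78 to 79 Mb to 98.1% on chromosome 4 from 138 to 139 Mb.

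The dense windows were slightly richer in GC, CpG and genes than all windows. Their GC content was 43.4% against 41.9%, with 9.97 against 8.51 CpG per kb and 30% against 33.5% of repeat-masked sequence. The windows with 20 to 49 paternal peaks had 44.2% GC and 10.2 CpG per kb, so these values did not set the densest windows apart from the next. GC content ran from 36.5 to 51.8% among the 56. The 28 windows of lower GC held 2470 control and 2602 Ezh2m-/p+ paternal peaks (ratio 1.05), and the 28 of higher GC 2646 and 2407 (ratio 0.910), a split made after the values were seen. In other windows with paternal peaks in both genotypes the ratios were 1.49 and 1.30, so the lower ratio at higher GC was seen there too.

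By the annotation of the lists, 19% (18.0 to 20.1) of the control and 19.2% (18.2 to 20.4) of the Ezh2m-/p+ paternal peaks of the windows were in promoters, against 17.3% and 17.0% elsewhere. Distal intergenic peaks were 36.0% and 35.9%, against 40.2% and 40%, and exon or UTR peaks 16.3% and 17.7%, against 12.6% and 13.6%. The windows themselves held more gene sequence. Protein-coding gene bodies made up 48.4% of their sequence and 41.2% elsewhere, and 53.4% and 52.9% of the sequence in their control and Ezh2m-/p+ peaks. Sequence within 3 kb of a protein-coding start was 6.61% of the windows and 7.54% and 7.40% of the sequence in their peaks. In other windows it was 4.74% of the sequence and 7.28% and 6.91% of that in peaks, a larger contrast than inside.

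The windows overlapped 685 of 20807 protein-coding genes (3.29%). A paternal peak lay in the body of 487 of them (71.1%) in both genotypes, against 10.9% of the other genes and 12.9% of all, a difference that the choice of windows brings about. No paternal peak lay in 131 of them in either genotype, and 66 had 10 or more in both. Windows ranged from 0 to 49 genes with a median of 8, against 5 over all windows. The median was 9 in windows with 20 to 49 paternal peaks in both lists, so the number of genes did not set the densest windows apart from the next. Both windows that began no protein-coding gene were filled by the peaks of a single gene by assignment. All paternal peaks of chromosome 4 from 76 to 77 Mb (66 and 108) were assigned to Ptprd, a receptor tyrosine phosphatase of synapses, and all of chromosome 3 from 149 to 150 Mb (56 and 68) to Adgrl2, a latrophilin.

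The 20 genes with the most assigned paternal peaks took 2336 of the 10125 (23.1%), and several of these genes are long. Rabgap1l had 95 control and 89 Ezh2m-/p+ peaks, Ptprd 66 and 108, and Ank2, which encodes the membrane adaptor ankyrin-B, 80 and 66. Ndst4, whose enzyme modifies heparan sulfate, had 58 and 81, Tmtc2 64 and 74, and Rgs7, a regulator of G protein signalling, 72 and 64. Tnr, which encodes the extracellular matrix protein tenascin-R, had 67 and 50, and Astn1, an astrotactin of migrating neurons, 50 and 39. Cadm1, a cell adhesion gene, had 56 and 52. None of the 20 had a maternal peak assigned within the windows. Few genes there had any: maternal peaks were assigned to 22 genes in control and 32 in Ezh2m-/p+ zygotes, beside 642 genes assigned paternal peaks. The absence is therefore not a trait of the leading genes. Assignment went to the nearest start site, so a count does not mean that the peaks lie in the gene: Sec16b was assigned 60 and 50 peaks but its body held 12 and 6, and for Adgrl2 the assigned peaks lay a median of 297 kb from the start site.

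Peaks covered the bodies of several of these genes broadly, often to a degree close to that of their windows. In the longest run, peaks covered 37.8% of Rabgap1l (574 kb) in control and 63.2% in Ezh2m-/p+ zygotes, beside 40.6% and 62.3% of its window. Tnr was covered to 48.7% and 65.0%, Astn1 to 47.9% and 69.4%, and Rasal2, which encodes a Ras GTPase-activating protein, to 43.3% and 77.6%. Camk2d, a calcium/calmodulin-dependent kinase gene on chromosome 3, was covered to 31.6% and 64.5% (window 27.1% and 49.2%). Other leading genes were covered less, such as Klhl1 (8.50% and 21.9%), Adgrl2 (13.3% and 26.3%) and Ndst4 (15.4% and 28.6%). Of the 2271 kb of Ptprd, most of which lie outside the dense window, 6.63% and 15.9% were covered.

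The shares of gene families that overlapped a dense window are given beside the 3.29% of all protein-coding genes. Most rest on few genes, and no difference from that share was tested. Of 1457 olfactory and vomeronasal receptor genes, which stand in clusters, 79 (5.42%) overlapped a dense window. A paternal peak lay in 38 of these in both genotypes (48.1%, against 71.1% of all protein-coding genes in the windows) and in 20 in neither (25.3%, against 19.1%). The receptor genes are short: the longest spans 15.6 kb, below the median of 15.9 kb of the genes in the windows. A short gene body holds a peak less often, and these shares were not adjusted for length. None of the 79 had a maternal peak, and few of all genes in the windows did (2.77% in control and 3.8% in Ezh2m-/p+ zygotes). Of 21 phospholipase A2 genes, 5 (23.8%) overlapped, all neighbours on chromosome 4 from 138 to 139 Mb. Pla2g2c, Pla2g2d, Pla2g2e, Pla2g2f and Pla2g5 each had a paternal peak in both genotypes, and Pla2g5 had 9 in control and 6 in Ezh2m-/p+ zygotes. Because they are neighbours, they amount to a single location.

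Among 189 developmental transcription factor genes, chosen by symbol from families such as Hox, Sox, Fox, Pax, Dlx and Pou, 5 (2.65%) overlapped. Factors of other families, such as Otx2, are not in this list. Pax7, a factor of muscle progenitors, held 14 control and 9 Ezh2m-/p+ paternal peaks, Pou6f1 held 3 and 6, and Foxd4 held 1 and 1. Dlx1 and Dlx2, homeobox genes of forebrain development on chromosome 2 from 71 to 72 Mb, held none. Of the 388 Zfp genes, 5 (1.29%) overlapped: Zfp219, Zfp39, Zfp46 and Zfp672 had a paternal peak in both genotypes, and Zfp692 had 2 in Ezh2m-/p+ zygotes only. Of 135 ion channel genes, 6 (4.44%) overlapped, and 5 of them had a paternal peak in both genotypes (Kcnf1, Kcnj10, Kcnj9, Kcnk12 and Scn8a), whereas Kcnk1 had none. Scn8a, which encodes a neuronal sodium channel, had 8 and 9. Of 95 cadherin genes only Cdh24 overlapped (2 and 2 peaks). Of 46 glutamate and GABA receptor genes only Gria1 overlapped (2.17%), with 2 control and 6 Ezh2m-/p+ paternal peaks and with maternal peaks in both genotypes.

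Of 13 genes of PRC2 and H3K27 methylation, only Jarid2 overlapped a dense window (7.69%, beside 3.29% of all protein-coding genes). JARID2 is an accessory subunit of PRC2, and its gene (chromosome 13, 44729474 to 44921643) held no peak of any list although it lies in a window with 55 and 70 paternal peaks. None of 21 canonical imprinted genes and none of 9 genes imprinted through maternal H3K27me3 overlapped a dense window. Beside the 3.29% of all protein-coding genes, lists this short can hold none without differing from other genes, so no avoidance is shown.

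Maternal peaks were few in the dense windows. They made up 0.509% (0.354 to 0.729) of the 5702 autosomal maternal peaks of control zygotes and 0.453% (0.337 to 0.610) of the 9487 of Ezh2m-/p+ zygotes, beside the 2.32% of windows. A maternal peak was listed in 14 of 56 windows (25.0%, 15.5 to 37.7) in control zygotes, against 61.1% of all windows, and in 16 (28.6%, 18.4 to 41.5) in Ezh2m-/p+ zygotes, against 70.7%. Neither genotype had one in 36 windows (64.3%, 51.2 to 75.5), whereas this held for 24.6% of the other windows. Because the libraries were split by parental variants, a read counted for a parent only where it covered a variant, and neither the density of variants in the windows nor the haplotype of the Ezh2 fl/fl mothers there was analysed here. The parental assignment of the peaks thus rests on the strains that the study states.

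The number of maternal peaks per window was lowest in the densest windows. It was 0.518 (0.347 to 0.744) in control and 0.768 (0.556 to 1.03) in Ezh2m-/p+ zygotes. Windows with 20 to 49 paternal peaks had 1.78 (1.56 to 2.02) and 3.08 (2.78 to 3.39), and those with 1 to 19 had 2.39 and 3.90. Where a paternal list was empty, the values were 2.51 and 4.28. The intervals of the dense windows did not overlap those of any other class. Without the window of chromosome 15 described next, the values were 0.364 (0.222 to 0.562) and 0.582 (0.398 to 0.821) over 55 windows. The ratio of Ezh2m-/p+ to control maternal peaks was 1.48 inside and 1.66 outside.

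**Figure D5:**
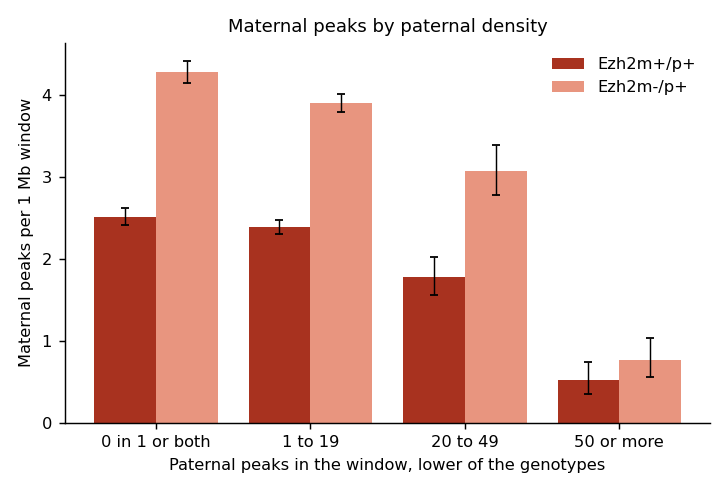
Maternal peaks per 1 Mb window for windows grouped by the lower of the genotypes' paternal counts (0, 1 to 19, 20 to 49, and 50 or more), Ezh2m+/p+ in dark and Ezh2m-/p+ in light red. Error bars are 95% Poisson intervals of the counts. The dense windows have 0.518 and 0.768 maternal peaks per window, below every other class.

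Read coverage of the parental genomes is known per chromosome only. In the authors' coverage table, maternal reads covered a median of 25.0% of the 16 chromosomes with a dense window and paternal reads 2.28% in control zygotes, and 35.5% and 3.41% in Ezh2m-/p+ zygotes. The 3 chromosomes without a dense window had 24.9% and 2.11%, and 36.2% and 3.10%. Whether coverage differs within the windows cannot be read from values per chromosome.

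The maternal peaks that remained were unevenly placed. Chromosome 15 from 100 to 101 Mb held 9 of the 29 control and 11 of the 43 Ezh2m-/p+ maternal peaks. Chromosome 2 from 71 to 72 Mb held 2 and 7, chromosome 12 from 17 to 18 Mb 3 and 4, and chromosome 11 from 57 to 58 Mb 3 and 2. A further window with peaks in both lists, chromosome 4 from 148 to 149 Mb, held 2 and 2.

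Within the windows, maternal peaks were more frequent in bins that held no paternal peak, and much of this came from the windows of chromosome 15 and chromosome 2 named first. The 46 bins of 100 kb without a control paternal peak held 10 of the 29 maternal peaks (0.217 per bin, against 0.0370 in the other bins). For Ezh2m-/p+ zygotes, 37 such bins held 17 of 43 (0.459 against 0.0497). Without those windows, which were left out after the values were seen, 5 of 18 control (0.128 per bin, 0.0416 to 0.299, against 0.0259) and 6 of 25 Ezh2m-/p+ maternal peaks (0.20, 0.0734 to 0.435, against 0.0373) lay in such bins. A maternal peak had a median of 2 paternal peaks of its own genotype within 50 kb in both genotypes, whereas a paternal peak had 12 and 11, and 12 and 12 in the windows that held a maternal peak of the genotype. Of the maternal peaks, 10 and 15 had none within 50 kb, or 5 and 3 without the same windows, where the medians were 4 and 2. Only 3 in each genotype overlapped a paternal peak, that is 10.3% (3.58 to 26.4) and 6.98% (2.40 to 18.6), beside a paternal coverage of 30.6% and 43.1% of the windows. In other windows the shares were 0.370% and 0.392%, beside a coverage of 1.05% and 1.72%, so an overlap below the coverage was seen there too. Most of the overlaps inside lay in the window of chromosome 15, without which 1 of 20 control and 0 of 32 Ezh2m-/p+ maternal peaks overlapped a paternal peak.

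The window of chromosome 15 shows this arrangement in detail. Dip2b held 3 control and 6 Ezh2m-/p+ maternal peaks between 100047401 and 100183199, all more than 50 kb from a paternal peak of their genotype. Atf1, which encodes a transcription factor of the CREB family, was assigned 3 and 1, among them the maternal control peak of largest fold (56.3, 100263601 to 100265399). Nearby at Methig1, maternal peaks of both genotypes lay in the promoter and overlapped paternal peaks, with folds of 5.61 and 9.75. Slc11a2, a gene of iron transport, held 2 Ezh2m-/p+ maternal peaks that also overlapped paternal peaks, with folds of 45.1 and 5.83. So the same window had maternal peaks both apart from and within its paternal peaks.

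Several other genes had maternal peaks in both genotypes. Gria1, which encodes an AMPA receptor subunit, was assigned 3 control maternal peaks in introns and 2 Ezh2m-/p+ peaks, of which 1 was in its promoter, none of them overlapping between genotypes. Hpcal1, a gene of a neuronal calcium sensor, was assigned 2 and 3, and 1 pair in its first intron overlapped (folds of 6.03 and 5.45). Slc25a12, the gene of a mitochondrial carrier, was assigned 1 and 2. In all, 5 of the control (17.2%, 7.60 to 34.5) and 5 of the Ezh2m-/p+ maternal peaks (11.6%, 5.07 to 24.5) overlapped a maternal peak of the other genotype, against 9.45% and 5.79% elsewhere, and the intervals include the latter values. Of the protein-coding genes that overlap the windows, 2.77% held a control and 3.8% an Ezh2m-/p+ maternal peak, against 10.4% and 15% of the other genes.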

How the data were processed

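The members and gene lists were chosen with earlier results of these data known. For the authors' lists, paired 150 bp reads were trimmed (Trimmomatic 0.38), mapped to mm10 (Bowtie2), filtered for mapping quality over 30, freed of duplicates (Picard) and divided by SNPsplit into maternal C57BL/6 and paternal PWK reads. Peaks came from SICER with the input as background (window 200 bp, gap 600 bp). The authors state that peaks longer than 1000 bp and above a fold of 5 were kept (the shortest listed span 999 bp), and ChIPseeker supplied the annotation. The deposited fold is a ratio of H3K27me2 to input reads. Start, end and length are in bp. A deposited table of coverage holds, per chromosome, a fraction overlaid by reads, and 2 of its 6 groups (MII oocytes) were not used. Read totals of each parental genome were not analysed here, so depth per window is unknown.

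Peaks were taken as listed and placed by their start. Windows, gaps (end of a peak to the start of the next in its window), overlaps of at least 1 bp and covered sequence were computed in Python 3.11.15 with numpy 2.4.6, pandas 2.3.3 and scipy 1.17.1, and figures drawn with matplotlib 3.10.9. Of 2473 windows, 2413 had known sequence. Genes were those of GENCODE vM21, sequence was GRCm38, and symbols of RefSeq matched 11459 of 11472 gene identifiers (99.9%). Named were the 10 densest windows, the longest run, the windows with most maternal peaks, the 20 genes with most assigned paternal peaks, up to 15 genes with maternal peaks, the members of the gene lists, and the peaks of largest fold and length of each list. Leading genes of single windows were named after their values were seen. The scripts were tested on simulated data. Alternatives were shifted or smaller windows, other minimums, peak midpoints, stricter fold or length, chromosome X and reciprocal overlap.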

Additional observations from a re-analysis of the deposited data

Results flagged for a closer look

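Chromosome X was outside the rule, and 3 of its windows would have met it. They were the windows from 121 to 122, 122 to 123 and 127 to 128 Mb, with 59, 52 and 59 paternal peaks in Ezh2m+/p+ and 92, 85 and 93 in Ezh2m-/p+ zygotes, and no maternal peak in either genotype. Few maternal peaks lay off the autosomes at all, which held 5702 of the 5744 listed in Ezh2m+/p+ and 9487 of the 9606 in Ezh2m-/p+ zygotes. The lack of maternal peaks in these windows therefore shows no depletion. The signal was singled out because it lies in peaks that no comparison above used.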

How the results depend on the processing

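With 1 library per genotype, leaving out a library gave no value. No paired analysis was possible because each genotype has 1 library and the result comes from no test. Of 101 alternative values, 55 stayed within the counting interval of the value reported (for the number of windows, within 1.5 times it) and 46 moved; where the alternative does not itself change which peaks enter, the cause was not tested. Values are given for Ezh2m+/p+ and then Ezh2m-/p+ zygotes. Shifting the windows by 500 kb gave 31.3% and 23.9% of paternal peaks in dense windows. A minimum of 40 gave 33.6% and 26.4% of paternal and 0.754% and 0.727% of maternal peaks. A minimum of 60 gave 25.8% and 19.2% of paternal and 0.263% and 0.179% of maternal peaks, 0.341 and 0.386 maternal peaks per window, an overlap of 87.8% and a ratio of the genotypes of 0.941. Windows of 500 kb with 25 peaks gave 131 windows, 35.1% and 27.1% of paternal peaks, 0.260 and 0.397 maternal peaks per 500 kb window and an overlap of 85.6%. The number of windows and the maternal peaks per window are in a smaller unit there. They are counted among those that moved, but cannot be set directly against the values per 1 Mb. With peaks of fold over 10, 33 windows remained dense, with 19.6% and 16.9% of paternal and 0.174% and 0.0983% of maternal peaks, 0.121 and 0.212 maternal peaks per window, gaps of 3801 and 3401 bp, an overlap of 69.4% and a ratio of 0.881. With peaks over 2000 bp, 26 windows remained, with 19.9% of Ezh2m-/p+ paternal peaks, 0.0446% and 0.0396% of maternal peaks, 0.0769 and 0.0769 maternal peaks per window, an Ezh2m+/p+ gap of 3601 bp, an overlap of 92.5% and a ratio of 1.06, above 1 where the reported ratio was below it. A reciprocal overlap of 50% gave 31.3%, close to the 31.7% over all autosomes. In the same windows, peaks over 2000 bp were promoter peaks in 21.8% and 21.9% and distal intergenic in 33.8% and 33.4%. Without chromosome 15 from 100 to 101 Mb and chromosome 2 from 71 to 72 Mb, an alternative chosen after seeing the data, the Ezh2m-/p+ maternal peaks per 100 kb bin without a paternal peak were 0.20. The maternal share was at most 0.754% in the alternatives run.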
